A study of Mus musculus with 4 samples.

Results

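The genes described here encode the nuclear subunits of the oxidative phosphorylation system in mouse splenocytes, the mixed cell suspension of a whole spleen. They were taken by symbol from the deposited expression table: Nduf genes of the A, B, C, S and V series, Sdha to Sdhd, Uqcr genes, Cox4 to Cox8 genes and Atp5 genes. That rule took 78 of the 14226 rows in the table, 36 for complex I, 4 for complex II, 8 for complex III, 13 for complex IV and 17 for complex V. The rule used names only and no measured value, though it was set with earlier results of these data known. RNA sequencing covered 2 wild-type (wt) libraries and 2 libraries of vcS5 +/T transgenic mice, all C57BL/6N. The vcS5 animals are labelled as 1 line (line1), and per its title the series concerns peripheral T cell lymphoma and a STAT5 mutation that activates the protein. Age, sex and the promoter that drives the transgene are not given in the sources used here, and the design calls the 2 samples of each genotype biological replicates. Values are FPKM, read fragments scaled to transcript length and library size, so levels of different genes can be set side by side per length.

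Oxidative phosphorylation is the process by which mitochondria turn the energy of reduced cofactors into ATP. Complex I takes electrons from NADH and complex II takes them from succinate. Both pass them to ubiquinone, from which complex III moves them to cytochrome c and complex IV to oxygen. Complexes I, III and IV pump protons across the inner mitochondrial membrane, and complex V, the ATP synthase, uses the returning protons to make ATP. All but complex II combine nuclear encoded subunits with subunits encoded on the mitochondrial chromosome. In lymphocytes this system serves resting cells and expands when T cells are activated.

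Most of these genes were somewhat higher in vcS5 than in wild-type splenocytes, and 1 of them passed the test. The change, vcS5 minus wild type on the log2(FPKM + 1) scale, was above 0 for 71 genes and below 0 for 7, where 50.1% of all rows were above 0. Its median was 0.24, with quartiles of 0.12 and 0.38 and a range of -0.94 to 0.70, while the median over all 14226 rows was 0.001. Both vcS5 libraries lay above both wild-type libraries for 52 of 78 genes, which is 66.7%, where 26.9% of all rows did so. Both lay below for 2 genes, against 27.5% of all rows, and the groups overlapped for 24. Ndufa1 rose and 0 of the 78 genes fell, by limma with Benjamini-Hochberg adjustment over all rows at a threshold of 0.05. Over all rows 4.59% were called higher, 4.13% lower and 8.72% in either direction. At an unadjusted p under 0.05, 14 of the genes were higher and 1 was lower, where 12.1% of all rows were higher and 13.1% lower. Ndufa1 was also the gene called higher, at a q-value under 0.05, in the authors' deposited table, and 0 were called lower, where that table called 5.31% of rows higher and 6.14% lower. With 2 libraries a group, changes of the size most of these genes had did not pass a test adjusted over the whole table.

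**Figure D1:**
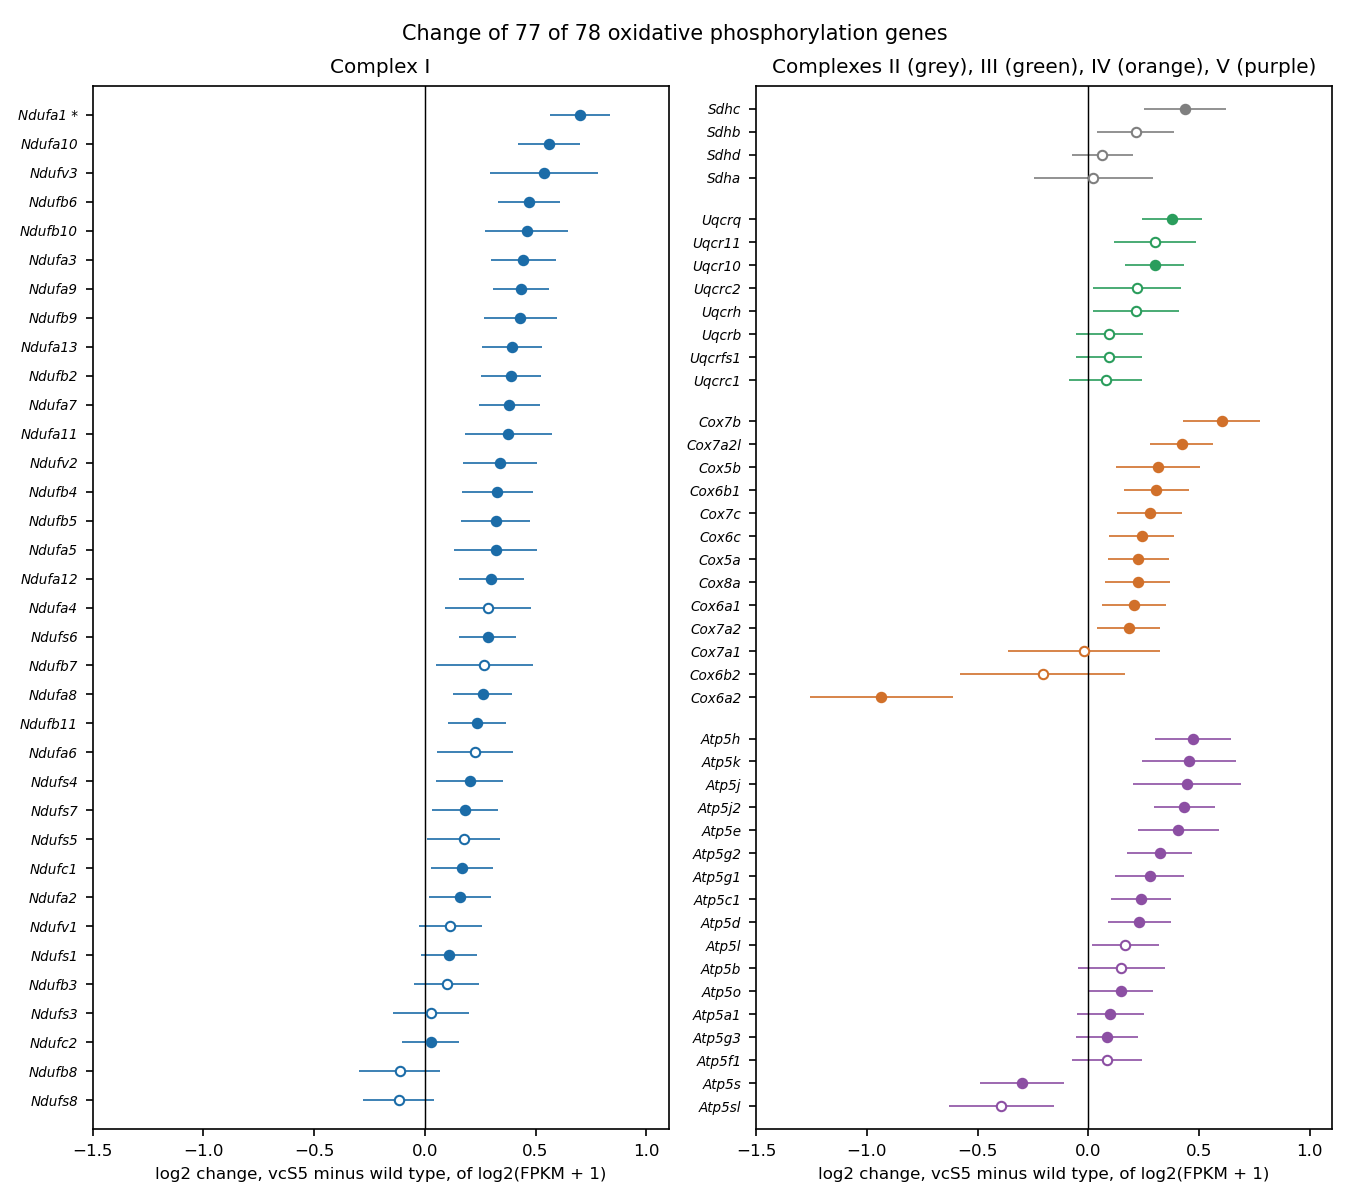
Log2 change (vcS5 minus wild type, of log2(FPKM + 1)) of 77 of the 78 genes, with bars of 1 standard error from limma. Filled points are genes whose 2 groups of libraries did not overlap, open points are genes whose groups overlapped, and the star marks Ndufa1, the gene past the adjusted threshold; 70 points lie to the right of 0.

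Summed over the 78 genes, FPKM was 7240 and 7702 in the wild-type libraries and 8619 and 9503 in the vcS5 libraries. The vcS5 mean of 9061 ± 625 (SD, n = 2) was 1.21 times the wild-type mean of 7471 ± 327 (SD, n = 2), and the groups did not overlap. FPKM summed over all rows was lower in vcS5, at 1239862 and 1219374, than in wild type, at 1349925 and 1469133. The 10 most abundant rows held 51.5% and 50.1% of it in wild type, against 43.3% and 37.6% in vcS5, while the median FPKM of a library was 12.2 to 12.6. As a share of FPKM outside those 10 rows, the 78 genes took 1.11% and 1.05% in wild type, against 1.23% and 1.25% in vcS5. When each library was rescaled to its sum outside those rows, the median change of the genes was 0.16 and that of all rows was -0.07. On that scale 67 of the 78 genes had a change above 0, and 43 of the 78 had both vcS5 libraries above both wild-type libraries, where 21.8% of all rows did. Ndufa1 then had an adjusted p of 0.0501 by limma.

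**Figure D2:**
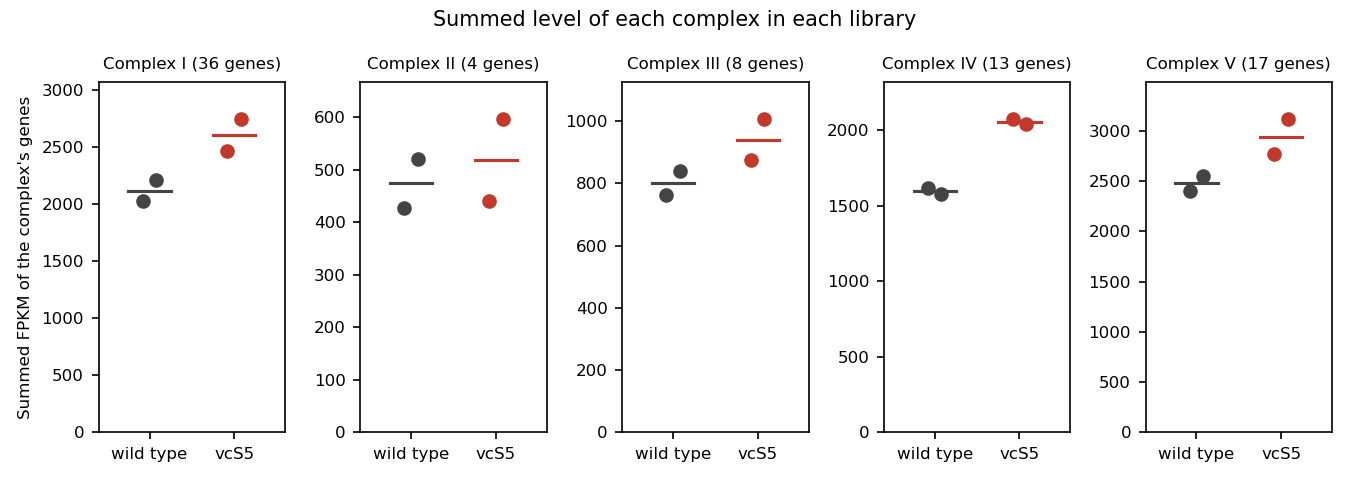
Summed FPKM of the genes of each complex in each library (points) with the mean of the 2 libraries of a group (line), each axis starting at 0. The 2 groups are apart for complexes I, III, IV and V and overlap for complex II. The 2 vcS5 libraries of complex IV, at 2073 and 2039, lie closest together on this scale, before any rescaling.

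The gene with the largest change in each complex is shown with the stretch before its transcription start. Nuclear factors that bind such stretches are known to act on this gene class, and their part in these changes was not tested. Sequences are from RefSeq, on mouse build GRCm38.p6, and run 5′ to 3′ on the strand of the gene. They stop at the more upstream of the RefSeq and GENCODE starts. Where the RefSeq window of a gene lay over 200 bases from the GENCODE start, or a gene had no window, the next gene of its complex was taken. This put Sdhb and Uqcr11 in place of Sdhc and Uqcrq. The stretches are Ndufa1 at chrX:37191239-37191488 (minus strand), Sdhb at chr4:140961021-140961202 (plus), Uqcr11 at chr10:80406831-80407071 (minus), Cox7b at chrX:106015450-106015699 (plus) and Atp5h at chr11:115419963-115420169 (minus). Capitals mark letters of the NRF1 or the ETS motif described after them.
Ndufa1: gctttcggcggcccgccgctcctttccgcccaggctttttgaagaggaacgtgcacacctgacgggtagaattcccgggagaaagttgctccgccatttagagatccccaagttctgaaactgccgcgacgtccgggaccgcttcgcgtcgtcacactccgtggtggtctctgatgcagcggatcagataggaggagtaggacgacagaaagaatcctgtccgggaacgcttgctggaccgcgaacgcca
Sdhb: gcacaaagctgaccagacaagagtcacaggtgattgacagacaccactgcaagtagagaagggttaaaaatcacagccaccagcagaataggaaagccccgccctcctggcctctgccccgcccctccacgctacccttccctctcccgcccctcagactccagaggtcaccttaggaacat
Uqcr11: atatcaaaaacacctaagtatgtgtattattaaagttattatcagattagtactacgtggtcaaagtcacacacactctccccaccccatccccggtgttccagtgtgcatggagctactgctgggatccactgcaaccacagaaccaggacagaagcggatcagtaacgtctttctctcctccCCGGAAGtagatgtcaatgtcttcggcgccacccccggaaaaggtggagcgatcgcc
Cox7b: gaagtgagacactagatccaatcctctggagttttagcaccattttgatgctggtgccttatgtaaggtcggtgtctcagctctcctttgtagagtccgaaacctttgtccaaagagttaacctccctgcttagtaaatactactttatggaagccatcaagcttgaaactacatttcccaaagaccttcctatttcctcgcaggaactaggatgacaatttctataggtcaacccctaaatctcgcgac
Atp5h: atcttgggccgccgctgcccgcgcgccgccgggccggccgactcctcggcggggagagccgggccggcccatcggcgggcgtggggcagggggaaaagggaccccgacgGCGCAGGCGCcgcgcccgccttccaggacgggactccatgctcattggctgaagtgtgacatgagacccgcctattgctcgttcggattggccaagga

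In windows from 250 bases before to 50 bases after the RefSeq start, which 67 of the 78 genes had, 3 motifs were searched on both strands. The motif of nuclear respiratory factor NRF1, searched as GCGC, any base and then TGCGC, stood in 16 of 67 windows (23.9%), in 10.9% of windows of the 8577 genes named in the table and in 4.60% of all windows. CCGGAAG, the core of the ETS motif that NRF2 (GABP) and other ETS factors bind, stood in 15 (22.4%), in 19.3% of the windows of genes named in the table and in 8.86% of all windows. AAGATGGC, the motif of YY1, stood in 10 (14.9%), in 5.08% and in 2.75%, and 7 of those 10 genes were of complex I and 3 of complex V. The ETS and YY1 letters can share the run AAG. At least 1 motif was present in 36 of the 67 windows, and in 2683 of the 8577 windows of genes named in the table. In the stretches shown, Atp5h holds the NRF1 letters, on the opposite strand, and Uqcr11 the ETS letters. Outside those stretches, the windows of Atp5h and Sdhb also hold the ETS letters, that of Atp5h on the opposite strand. The windows of Ndufa1 and Cox7b, which had the largest changes of their complexes, hold none of the 3 motifs. For change, the median was 0.24 with and 0.27 without the NRF1 motif, 0.22 and 0.27 for the ETS motif, and 0.19 and 0.27 for the YY1 motif, differences that were not tested. A match in letters is a description of the window, not evidence of a bound site.

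Complex I, the NADH dehydrogenase, has a core of subunits that carry the flavin and the iron-sulphur clusters and a large set of accessory subunits that surround it. Of its 36 genes, 34 had a change above 0. Both vcS5 libraries lay above both wild-type libraries for 27 (75%), where 26.9% of all rows did so. The median change was 0.28. Summed FPKM went from 2120 ± 129 in wild type to 2608 ± 197 in vcS5 (SD, n = 2 each), a ratio of 1.23. At an unadjusted p under 0.05 by limma, 9 genes were higher and 0 lower, where 12.1% of all rows were higher and 13.1% lower.

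Ndufa1, a small accessory subunit needed to assemble the membrane arm, measured 75.4 and 75.05 FPKM in wild type, against 118 and 128 FPKM in vcS5. Both wild-type values were nearly equal and both vcS5 values were well above them. It rose 1.63-fold, by 0.70 on the log2 scale (SE 0.14, adjusted p = 0.0418 by limma). Its q-value in the authors' deposited table was 0.0207. With each library left out in turn the change stayed between 0.64 and 0.76 and the adjusted p was 0.147 to 0.206, so its call needs all 4 libraries. Ndufa1 lies on the X chromosome at chrX:37187588-37191163 on the minus strand of mm10, a protein-coding gene with no other row at its locus.

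Ndufa3, an accessory subunit and the complex I gene with the highest FPKM, measured 181 and 195 FPKM in wild type, against 257 and 255 FPKM in vcS5. The groups were apart and the change was 0.45 (adjusted p = 0.139 by limma). Ndufa10, another accessory subunit, had the second largest change of the complex, 0.56 (SE 0.14, adjusted p = 0.0770 by limma), from 32.7 and 35.1 FPKM to 47.5 and 53.5 FPKM. Ndufv3 (0.54), Ndufb6 (0.47), Ndufb10 (0.46), Ndufa9 (0.43) and Ndufb9 (0.43) followed, each with both vcS5 libraries above both wild-type libraries and none past the adjusted threshold. Ndufa4 carries a complex I symbol but is now assigned to complex IV as one of its subunits. It measured 133 and 161 FPKM in wild type, against 158 and 201 FPKM in vcS5, and those groups overlapped.

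The 7 core genes, most of which encode subunits that bind the cofactors or ubiquinone, had smaller changes by median than the 29 accessory genes. Their median change was 0.11, with 4 of 7 apart between the groups, and their summed FPKM in vcS5 was 1.101 times that in wild type. Accessory genes had a median of 0.32, with 23 of 29 apart, and a ratio of 1.26. Over all rows 26.9% were apart with vcS5 above, and whether the 2 classes differ was not tested. The core genes have longer annotated transcripts, with a median of 977 bases against 625 for the accessory genes. The part of that length difference was not tested. Ndufs1, the largest of the iron-sulphur subunits, measured 28.6 and 28.2 FPKM in wild type, against 30.5 and 30.9 FPKM in vcS5. Ndufs8, a core subunit that binds iron-sulphur clusters, had the lowest change of the complex, with 54.6 and 56.9 FPKM in wild type, against 46.0 and 57.02 FPKM in vcS5 (-0.12, SE 0.16, adjusted p = 0.713 by limma). Its groups overlapped, as did those of Ndufb8, the other complex I gene with a change below 0 (-0.11), whose row also merges Sec31b and Gm20538.

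Complex II, succinate dehydrogenase, is also an enzyme of the citric acid cycle and is wholly nuclear encoded. Its 4 genes had changes above 0, with a median of 0.14, though after the rescaling 2 of them, Sdha and Sdhd, lay below 0. Its summed FPKM overlapped between the groups, at 428 and 521 in wild type, against 440 and 596 in vcS5. Sdha, the flavoprotein that oxidises succinate, was the most abundant, with 251 and 350 FPKM in wild type, against 249.7 and 364 FPKM in vcS5. In both groups the second library was far above the first, and the groups overlapped almost fully (0.02, SE 0.27, adjusted p = 0.972 by limma). Sdhb, the iron-sulphur subunit, measured 47.2 and 54.3 FPKM in wild type, against 52.6 and 65.8 FPKM in vcS5, and its groups overlapped (0.21, adjusted p = 0.519 by limma). The groups were apart, with vcS5 above, for 1 of the 4 genes (25%), where 26.9% of all rows were. That gene was Sdhc, a membrane anchor that binds ubiquinone. It measured 76.3 and 69.8 FPKM in wild type, against 85.7 and 115 FPKM in vcS5, a change of 0.44 (SE 0.19, adjusted p = 0.231 by limma). Sdhd, the other anchor, measured 52.8 and 46.8 FPKM in wild type, against 52.2 and 51.8 FPKM in vcS5, which overlapped (0.06, adjusted p = 0.834 by limma).

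Complex III, the cytochrome bc1 complex, is represented by 8 genes, all with changes above 0 and a median of 0.22. Summed FPKM was 761 and 838 in wild type, against 874 and 1006 in vcS5, a ratio of 1.18 between groups that did not overlap. For single genes the groups were apart, with vcS5 above, in 2 of 8 (25%), Uqcrq and Uqcr10, where 26.9% of all rows were. Uqcrq, a small subunit that lies beside cytochrome b, measured 97.3 and 102 FPKM in wild type, against 133 and 126 FPKM in vcS5. Its ratio was 1.30 and its change 0.38 (SE 0.14, adjusted p = 0.170 by limma). Uqcr10, another small subunit, had a change of 0.30. Uqcrh, the hinge protein that helps cytochrome c dock, was the most abundant gene of the complex, with 214 and 257 FPKM in wild type, against 243 and 305 FPKM in vcS5. Its groups overlapped (0.22, adjusted p = 0.570 by limma). The smallest change was that of Uqcrc1, a core protein, with 60.8 and 69.6 FPKM in wild type, against 62.3 and 75.8 FPKM in vcS5 (0.08, adjusted p = 0.827 by limma). Its groups overlapped too.

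On the deposited FPKM scale, complex IV, cytochrome c oxidase, had the most even pattern among the genes taken by symbol. All 10 of its broadly expressed Cox genes had both vcS5 libraries above both wild-type libraries, where 26.9% of all rows did so. Their changes were 0.18 to 0.60, with a median of 0.26. After the rescaling described above, some of these genes overlapped between the groups, Cox5a among them. The median change over the complex's 13 genes was then 0.15. Ndufa4, counted with complex I by its symbol, is not among the 10, and its groups overlapped. Over all 13 genes summed FPKM, before any rescaling, was 1599 ± 26.7 in wild type and 2056 ± 24.1 in vcS5 (SD, n = 2 each). The ratio of 1.29 was the highest of the 5 complexes. Cox7b, a small membrane subunit needed for assembly of the enzyme, contributed most, with 411 and 389 FPKM in wild type, against 649.8 and 569 FPKM in vcS5. It was the most abundant gene of the complex and its groups were far apart. Its 1.52-fold ratio and change of 0.60 (SE 0.17) had an unadjusted p of 0.0168 and an adjusted p of 0.107 by limma, so it did not pass. Cox8a, the ubiquitous form of subunit VIII, measured 228 and 212 FPKM in wild type, against 262 and 251 FPKM in vcS5 (0.22, adjusted p = 0.425 by limma). Cox5b (0.31), Cox7c (0.28), Cox6c (0.24) and Cox5a (0.23) lay in between. Cox4i1 and Cox4i2, the forms of subunit IV, were not analysed here, nor were Cox7b2, Cox8b, Cox8c and Ndufa4l2.

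Several subunits of complexes IV and V exist as copies that replace each other, and the abundant copy held nearly all of the FPKM within each pair of complex IV. Cox6a1, the general form of subunit VIa, measured 185 and 183 FPKM in wild type, against 206 and 219 FPKM in vcS5 (0.21, adjusted p = 0.445 by limma). Cox6a2, the heart and muscle form, was near the floor of the table, with 2.29 and 4.22 FPKM in wild type, against 0.797 and 1.61 FPKM in vcS5. It was the lowest gene of all 78 by change (-0.94, SE 0.32, unadjusted p = 0.0325, adjusted p = 0.155 by limma), and its groups were apart. The Cox6a2 row shares its locus with Itgad, an integrin gene, and the libraries do not mark strand, so reads of the 2 genes cannot be fully told apart. Tnni3, the 1 of 5 muscle markers measured, stood at 5.93, 5.87, 2.68 and 4.58 FPKM in the same order of libraries.

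Cox6b1, the general form of subunit VIb, measured 184 and 191 FPKM in wild type, against 224 and 240.4 FPKM in vcS5 (0.31, adjusted p = 0.271 by limma). Cox6b2, the testis form, measured 3.10 and 3.22 FPKM in wild type, against 1.49 and 4.22 FPKM in vcS5, so that the vcS5 libraries lay on both sides of wild type. Cox7a1, the heart and muscle form of subunit VIIa, measured 1.78 and 0.996 FPKM in wild type, against 0.784 and 2.03 FPKM in vcS5, with no separation. Cox7a2, the general form, measured 59.5 and 52.6 FPKM in wild type, against 61.9 and 65.3 FPKM in vcS5 (0.18, adjusted p = 0.498 by limma). Cox7a2l, a related protein studied for a role in joining complexes III and IV into supercomplexes, a role not measured here, was higher than either. It measured 171 and 179.9 FPKM in wild type, against 237 and 234 FPKM in vcS5, groups that were apart (0.42, adjusted p = 0.150 by limma). Its share of the Cox7a trio was 73.6% and 77.1% in wild type, against 79.1% and 77.6% in vcS5.

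**Figure D3:**
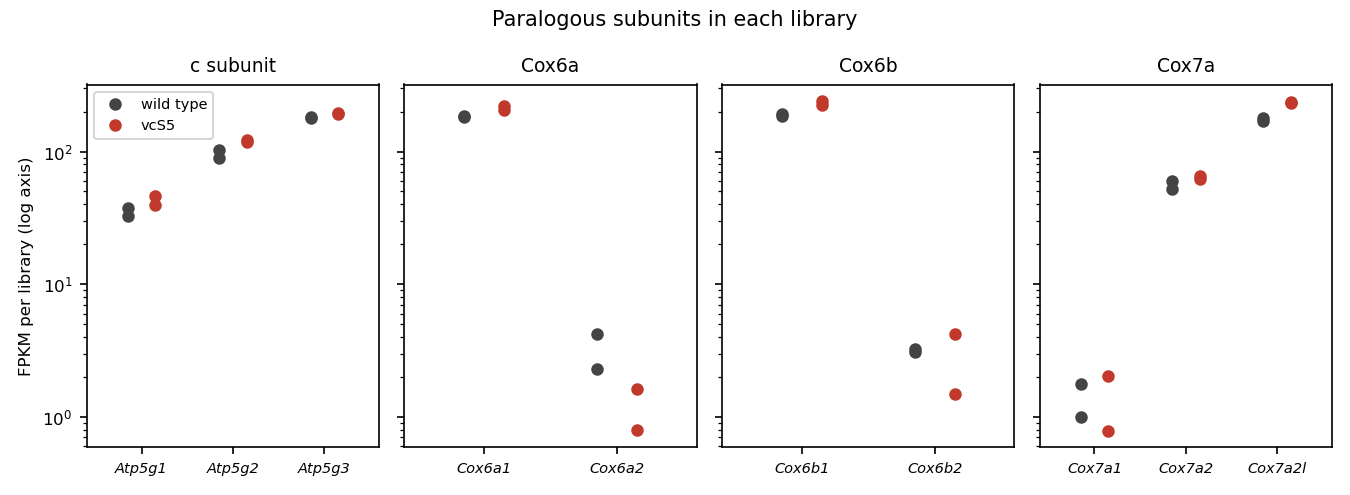
FPKM per library, on a log axis, of the copies of the c subunit of ATP synthase and of cytochrome c oxidase subunits 6a, 6b and 7a, with wild-type libraries in dark grey and vcS5 libraries in red. The 3 c subunit copies and Cox6a1, Cox6b1, Cox7a2 and Cox7a2l lie above 30 FPKM with vcS5 above wild type, and Cox6a2, Cox6b2 and Cox7a1 lie below 5 FPKM.

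Complex V, the ATP synthase, consists of a catalytic F1 head and a membrane part joined by stalks. Of its 17 genes, 15 had a change above 0, with a median change of 0.23. Both vcS5 libraries lay above both wild-type libraries for 12 (70.6%), where 26.9% of all rows did so. Summed FPKM was 2404 and 2551 in wild type, against 2763 and 3115 in vcS5, a ratio of 1.19 between groups that were apart. The 5 genes of the F1 part, head and central stalk together (Atp5a1, Atp5b, Atp5c1, Atp5d and Atp5e), had a median change of 0.23. The 10 genes of the peripheral stalk and membrane part had one of 0.30. Atp5b, the catalytic beta subunit of the head and the most abundant gene of all 5 complexes by its mean over the 4 libraries, measured 490.2 and 549 FPKM in wild type, against 517 and 641 FPKM in vcS5. Its groups overlapped (0.15, SE 0.20, adjusted p = 0.708 by limma). In vcS5 alone its mean of 579 ± 88.0 FPKM was below the 609 ± 57.5 FPKM of Cox7b (SD, n = 2 each), a difference within the spread of the libraries. Atp5h, a subunit of the peripheral stalk, had the largest change of the complex. It measured 148 and 165 FPKM in wild type, against 197 and 239.8 FPKM in vcS5, which were apart (0.47, SE 0.17, adjusted p = 0.172 by limma). Atp5k, Atp5j and Atp5j2, also of the stalk and membrane part, had changes of 0.45, 0.45 and 0.43.

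The c subunit, which forms the rotating ring in the membrane, is made from 3 genes whose mature proteins are identical. Atp5g3 was the most abundant, with 184 and 180.1 FPKM in wild type, against 195 and 191 FPKM in vcS5 (0.09, adjusted p = 0.769 by limma). Atp5g2 measured 89.5 and 102 FPKM in wild type, against 118 and 122 FPKM in vcS5 (0.32, adjusted p = 0.249 by limma). Atp5g1 measured 37.6 and 32.8 FPKM in wild type, against 39.6 and 46.3 FPKM in vcS5 (0.28, adjusted p = 0.344 by limma). All 3 had groups that were apart, and their order was the same in all 4 libraries. The share of Atp5g3 in the trio was 59.1% and 57.2% in wild type, against 55.3% and 53.2% in vcS5.

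The Atp5 symbols also take in Atp5s and Atp5sl, which are not structural subunits of the enzyme. Atp5s, known as coupling factor B, was low, at 4.03 and 4.62 FPKM in wild type, against 3.77 and 2.92 FPKM in vcS5, and was with Cox6a2 the other gene whose vcS5 libraries both lay below wild type. Atp5sl, now named Dmac2 and known as a factor in complex I assembly, had the lowest change of complex V. It measured 44.7 and 68.1 FPKM in wild type, against 38.4 and 45.5 FPKM in vcS5, groups that overlapped (-0.39, SE 0.24, adjusted p = 0.379 by limma). Its change was -0.094 without wild-type replicate 2 and -0.69 without wild-type replicate 1.

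The members with changes below 0 are thus 3 isoforms or copies of restricted expression (Cox6a2, Cox6b2 and Cox7a1), 2 Atp5 symbols outside the enzyme, and Ndufs8 and Ndufb8. Leaving out members with a mean under 5 FPKM kept 74 genes, with a median of 0.25. Of these, 52 (70.3%) were apart upward and 0 downward, where 26.9% and 27.5% of all rows were. Locus overlap was set beside the changes. The 58 members alone at their locus had a median change of 0.28 with 39 (67.2%) apart upward. Those that share or merge a locus, 20 in number, had 0.19 with 13 (65%), and the difference was not tested. The genes with the largest changes of complexes I and IV, Ndufa1 and Cox7b, are both X-linked. The 3 X-linked members (with Ndufb11) had a median change of 0.60 and a summed ratio of 1.498, against a median of 0.23 for the 75 autosomal members. Over the 333 X-linked protein-coding rows the median change was 0.10, with 32.1% having both vcS5 libraries above both wild-type libraries, and 10 rows called higher and 7 lower.

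Transcript length moved with the change. Length was taken as the median over a gene's annotated protein-coding transcripts. The members are short, with a median of 669.5 bases against 2087 over all protein-coding genes in the table. That length need not be the one of the transcript expressed, so single genes may stand in a wrong bin. Uqcrc1, a core protein of complex III, stands at 533 bases and Ndufb2, an accessory subunit of complex I, at 2413. Among other protein-coding rows of at least 40 FPKM, the median change was lower at greater length: it was 0.13 for transcripts of 69 to 765 bases, 0.10 for 766 to 1141 bases, and -0.01 above 3403 bases. Both vcS5 libraries lay above both wild-type libraries in 39.9% of the other rows of the shortest bin and in 26.7% of the longest. Of the 37 members in the shortest bin, 28 were apart upward and their median change was 0.30. In the next bin, 10 of 13 members were, with a median of 0.23, where 36.1% of the other rows were. Among longer members, few in number, 2 of 7 were apart upward at 1142 to 1436 bases, where 28.8% of the other rows of that bin were, and 0 of 3 at 1811 to 1926 bases, where 30.7% were. Both of the 2 longest members of at least 40 FPKM were apart upward, where 29.6% of the other rows of their bin were. Ndufb2, at 2413 bases, is among those 2 members, and its row also merges Adck2. The part of length in the members' change was not tested.

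**Figure D4:**
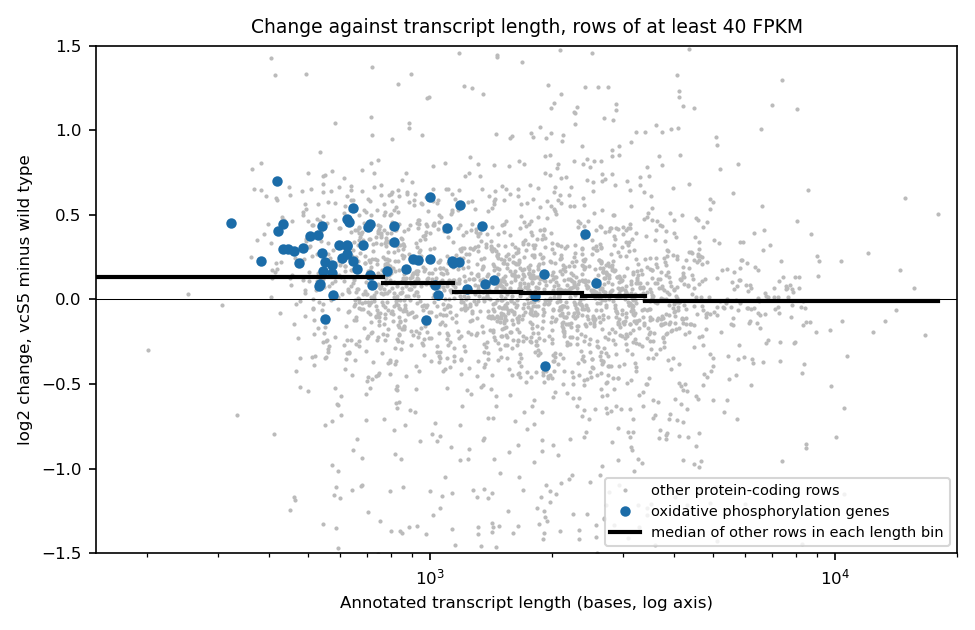
Log2 change (vcS5 minus wild type) against annotated transcript length in bases (log axis) for protein-coding rows of at least 40 FPKM, with 62 of the 78 genes in blue, other rows in grey and black lines for the median of other rows in each of 6 length bins. The black lines step down from 0.13 at the shortest transcripts to -0.01 at the longest, most blue points lie above them, and 62 grey rows lie outside the axis.

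Cell type markers differed between the genotypes as well. The summed FPKM of 9 B cell marker rows was 3060 and 3718 in wild type, against 1271 and 1232 in vcS5, and all 9 fell. The 8 pan T cell markers summed to 727 and 1001 in wild type, against 2016 and 2716 in vcS5. All 8 had both vcS5 libraries above both wild-type libraries, and 4 passed the adjusted threshold. The 2 CD8 T cell markers summed to 125 and 167 against 957 and 1105, and both rose. The 2 CD4 T cell markers, Cd4 and Zbtb7b, summed to 86.4 and 102 against 48.4 and 53.5, and both fell. Of the 4 natural killer cell markers, Klrd1 rose and Ncr1 fell, and the sum was 112 and 101 against 186 and 179.7. Neutrophil markers summed to 6442 and 1942 in wild type, against 1045 and 1008 in vcS5. All 10 had both vcS5 libraries below both wild-type libraries, and 1 of 10 was called lower. In a bulk suspension a change in the number of cells of a type and a change in RNA per cell cannot be told apart, and the part of these shifts in the change of the oxidative phosphorylation genes was not tested.

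The 13 messenger RNAs of the mitochondrial chromosome, which encode the partners of these nuclear subunits, stand in 4 rows of the table. Of those, 1 row, named mt-Co1, merges 9 identifiers and the mt-Nd1 row merges 2. None rose or fell, and all 4 overlapped between the groups, with a median change of -0.28 and a range of -0.33 to -0.26. Summed FPKM of the 4 rows was 122319 and 105084 in wild type, against 104048 and 85236 in vcS5. The nuclear genes therefore amounted to 5.92% and 7.33% of the mitochondrially encoded sum in wild type, against 8.28% and 11.1% in vcS5. Those rows are among the most abundant of the libraries, and the merged rows do not give single genes.

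Other genes of the pathway were read off the same fit. Of 10 rows for subunits and carriers outside the symbol rule, 1 rose and 0 fell, with a median change of -0.01. Slc25a4, which encodes the ADP/ATP carrier ANT1, rose from 38.2 and 37.1 FPKM to 67.3 and 69.6 FPKM, 1.82-fold (0.85, SE 0.13, adjusted p = 0.0241 by limma). Atpif1, the inhibitor of the ATP synthase, was at 69.8 and 63.6 FPKM in wild type, against 38.5 and 53.6 FPKM in vcS5, and did not pass the test (-0.54, adjusted p = 0.172 by limma). Cyc1, the cytochrome c1 subunit of complex III, and Cycs, the cytochrome c that takes electrons from it to complex IV, had changes of -0.01 and 0.00. Assembly factors, which build the complexes without staying in them, had 0 called of 36 rows and a median of 0.14. Of those rows 17 (47.2%) were apart upward, where 26.9% of all rows were.

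Mitochondrial ribosomal proteins, which make the mitochondrially encoded subunits, had the median nearest to that of the 78 genes among these lists. Their 78 rows had a median of 0.20, with 36 (46.2%) apart upward and 4 (5.13%) apart downward, where 26.9% and 27.5% of all rows were. Mrpl18 rose from 37.5 and 39.7 FPKM to 60.9 and 68.3 FPKM (0.73, adjusted p = 0.0403 by limma) and was the 1 row called. Its q-value in the authors' deposited table was 0.587. The 14 citric acid cycle genes had 0 called, 2 apart upward (14.3%) and 1 downward (7.14%). Their median of 0.05 was -0.03 after the rescaling, the only median of these lists to change sign with it. Glycolysis had 1 of 16 called higher and a median of 0.13: Pfkp, a phosphofructokinase of the committed step, rose from 62.3 and 64.3 FPKM to 103 and 122 FPKM (0.82, adjusted p = 0.0366 by limma). Regulators of mitochondrial gene expression had 0 of 14 rows called and a median of 0.09. Among them Myc, a transcription factor of growth genes, measured 59.5 and 71.4 FPKM in wild type, against 89.8 and 109 FPKM in vcS5 (0.59, adjusted p = 0.111 by limma). Nrf1, whose motif was searched above, had a change of 0.02, and Tfam, which packages and transcribes mitochondrial DNA, one of -0.21. Whether any of these lists differs from the 78 genes was not tested. Slc25a4, Mrpl18 and Pfkp each lost their call when any 1 library was left out, with adjusted p of 0.113 to 0.200 over those fits.

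**Figure D5:**
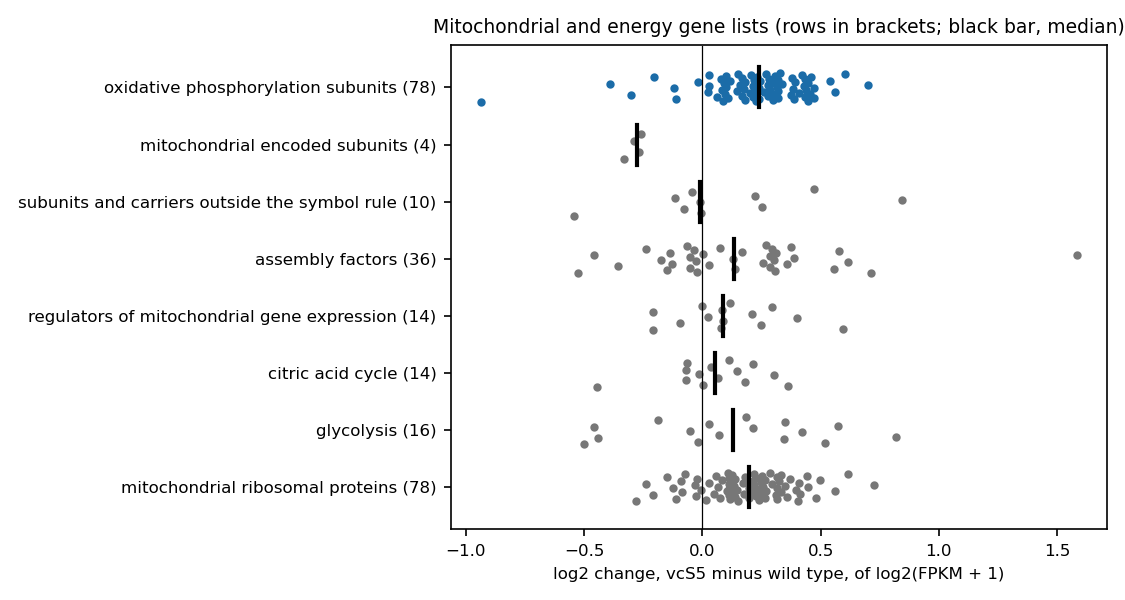
Log2 change (vcS5 minus wild type, of log2(FPKM + 1)) of every row of the 78 oxidative phosphorylation genes (blue) and of 7 other mitochondrial or energy lists (grey), with the median of each list as a black bar. The medians run from 0.24 for the 78 genes and 0.20 for mitochondrial ribosomal proteins to -0.28 for the 4 mitochondrially encoded rows.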

How the data were processed

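RNA was extracted from flash-frozen spleen cell suspensions and made into TruSeq v2 libraries, per the labels' protocols, a kit that does not mark strand. The authors deposited FPKM per gene row for the 4 libraries in 1 table, and, per the file headers, a log2 fold change, a p-value and a q-value of their own comparison. Bowtie2 2.1.0, TopHat2 2.0.9, Cufflinks, Cuffdiff 2.1.1 and mm10 are named in the submitters' processing notes, without settings. FPKM keeps no absolute depth, so no counting interval is given.

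Values were transformed as log2(FPKM + 1), which understates changes of low genes. All 14226 rows were fitted with limma 3.58.1 (R 4.3.3), two-sided, with a variance trend, no covariates, 2 residual and 3.17 prior degrees of freedom. A minimum mean FPKM of 1 removed 0 rows. Folds are ratios of mean FPKM. The script was tested on simulated data. Members and lists were chosen with earlier results of these data known, and no p-value is given over a list. The members named with values are the called one, the extremes and the most abundant of each complex, paralogous copies and the Sdh genes. Others named were chosen after their values were seen, as were the length bins. Transcript lengths, each the median over a gene's protein-coding transcripts, and loci are from GENCODE vM21. Of the members, 1 is counted in the totals but not reported here by name.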

Additional observations from a re-analysis of the deposited data

How the results depend on the processing

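With every alternative tried, the count of members called lower stayed at 0. The count called higher was 1, and became 0 when the libraries were rescaled outside the 10 most abundant rows, 0 without the variance trend (Ndufa1 adjusted p = 0.0549 by limma, Mrpl18 0.0562) and 0 to 0 with each library left out. Over all rows the number called was 653 higher and 588 lower, and 52 to 164 and 19 to 81 with a library left out, where fewer samples are fitted. Rescaling lowered the median change of every complex, to 0.21 in complex I, 0.061 in complex II, 0.14 in complex III, 0.15 in complex IV and 0.15 in complex V. With a library left out, the medians ran from 0.19 to 0.40 in complex I and 0.061 to 0.33 in complex II. They ran from 0.11 to 0.32 in complex III, 0.18 to 0.33 in complex IV and 0.17 to 0.28 in complex V. Of 316 values of 26 named members and 3 list genes under alternatives, 283 kept direction and side of the threshold, 20 lost their call and 13 changed sign. None of those 13 was a called value: after rescaling Sdhd was -0.014 and Sdha -0.056, and in the authors' deposited comparison Cox7a1 was 0.021. With a library left out, Sdha ran from -0.25 to 0.29 (below 0 without wild-type replicate 1, at -0.22, or vcS5 replicate 2), Sdhd from -0.023 to 0.15, Uqcrc1 from -0.061 to 0.22, Cox7a1 from -0.40 to 0.36, Ndufs8 from -0.27 to 0.033, Cox6b2 from -0.74 to 0.33 and Atp5b from -0.0057 to 0.31. Changes that kept their sign also varied with the library left out, from -1.27 to -0.60 for Cox6a2, -0.69 to -0.094 for Atp5sl, 0.23 to 0.64 for Sdhc and 0.050 to 0.38 for Uqcrh. The cause was not tested. A minimum mean of 5 FPKM gives no value for Cox6a2, Cox6b2, Cox7a1 and Atp5s.

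Groups share the replicate numbers 1 and 2, but no label says that a number pairs samples. With the replicate number as a block, 1 member was called higher, 579 rows were called higher and 449 lower, and the correlation of same-numbered deviations was 0.18 over all rows and 0.35 over members. In an alternative chosen after seeing the data, the number of members with vcS5 above wild type was 56 to 69 of 78 with a library left out, where 36.0% to 41.2% of all rows were, and 43 after rescaling. Depth is unknown, which limits what can be said of genes of a few FPKM.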
